A study of Homo sapiens with 9 samples.

Results

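The CD1 genes encode 5 related molecules for the presentation of lipid antigens, and they were selected by symbol: CD1A, CD1B, CD1C, CD1D and CD1E, 5 of the 25540 gene symbols with a deposited value. The family was singled out because CD1B and CD1E had differed between KHSRP knockdown and control in earlier results of these libraries. The knockdown and control values of its members are therefore a description; fitted differences and calls are given beside them with no p, and count as no evidence about the family. The RNA came from CAL-1 cells, an established human line that models BPDCN (blastic plasmacytoid dendritic cell neoplasm), an aggressive blood cancer arising from plasmacytoid dendritic cells. KHSRP had been knocked down by CRISPR interference in the groups KHSRPi#1 and KHSRPi#2, each with 3 libraries, and the NTC group of 3 libraries, whose genotype is labelled WT, served as control. All 9 libraries carry 1 batch label, and the labels name neither the guide sequences nor an agent besides the knockdown, so the groups stand for a single line. They do not say whether replicates were separate cultures, so the spread between libraries may be technical.

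CD1 molecules are heavy chains that pair with beta-2-microglobulin and hold lipids in a hydrophobic groove, where T cells can recognise them. CD1a, CD1b and CD1c form group 1 and present microbial and self lipids to T cells of varied receptors, while CD1d presents glycolipids to natural killer T cells. CD1e stays inside the cell and helps to handle lipids in the lysosome. Conventional dendritic cells and cortical thymocytes are known for group 1 CD1 proteins, and CD1c (BDCA-1) marks a subset of conventional dendritic cells. KHSRP binds AU-rich elements in 3' untranslated regions and speeds up the turnover of the mRNAs that hold them.

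The 5 genes lie together on chromosome 1, in a stretch of 177.6 kb on hg38. In GENCODE 29 the order is CD1D (158179947 to 158184896), CD1A (158254137 to 158258269), CD1C (158289786 to 158293630), CD1B (158327951 to 158331531) and CD1E (158353696 to 158357553). CD1B is on the minus strand and the other 4 are on the plus strand. CD1B and CD1E are nearest neighbours, 22164 bases apart.

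Because KHSRP acts on AU-rich elements, the 3' untranslated regions of the members' longest coding transcripts were searched on the transcript strand for ATTTA, the core of such elements. CD1A held 3 in 579 bases, CD1B 2 in 285 bases, CD1C 1 in 154 bases and CD1D 3 in 746 bases, and no ATTTA was in the 52 bases of CD1E. Of 9667 tested coding genes with an annotated 3' untranslated region, 68.2% held at least 1 ATTTA, and the median length was 996 bases. Among genes whose region was 80% to 125% as long, 59.1% held the motif at the length of CD1A and 40.8% at that of CD1B. The share was 24.1% for CD1C, 69.1% for CD1D and 8.3% for CD1E. The longer form TATTTAT was in none of the 5 regions, and in 31.3% of the tested genes. The following windows show 4 of the sites, both of CD1B, the only one of CD1C and 1 of CD1A, with ATTTA in capitals, 5′ to 3′ on the gene's strand:
CD1A, chr1:158258119-158258143, plus strand: cattgcagttATTTAgatcccccct
CD1B site 1, chr1:158328080-158328104, minus strand: ataaattattATTTAaacatcagca
CD1B site 2, chr1:158328044-158328068, minus strand: aaaactgtaaATTTAttatgagact
CD1C, chr1:158293556-158293580, plus strand: tcgactctccATTTAaattgtttct

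RefSeq promoter windows (GRCh38.p14, 250 bases before to 50 after a start) matched 4 of the 5 members. Those of CD1C and CD1E are shown because these are the abundant members, and their values moved differently between the libraries. GGAA, the core letters of ETS factor sites, is in capitals on either strand (GGAA or TTCC):
CD1C promoter, chr1:158289673-158289972, plus strand: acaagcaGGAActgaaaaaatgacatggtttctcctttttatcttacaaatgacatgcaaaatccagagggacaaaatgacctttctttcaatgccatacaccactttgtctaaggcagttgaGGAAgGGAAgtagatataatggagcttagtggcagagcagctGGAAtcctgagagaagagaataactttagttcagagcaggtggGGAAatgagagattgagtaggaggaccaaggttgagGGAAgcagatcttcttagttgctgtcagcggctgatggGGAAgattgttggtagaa
CD1E promoter, chr1:158353644-158353943, plus strand: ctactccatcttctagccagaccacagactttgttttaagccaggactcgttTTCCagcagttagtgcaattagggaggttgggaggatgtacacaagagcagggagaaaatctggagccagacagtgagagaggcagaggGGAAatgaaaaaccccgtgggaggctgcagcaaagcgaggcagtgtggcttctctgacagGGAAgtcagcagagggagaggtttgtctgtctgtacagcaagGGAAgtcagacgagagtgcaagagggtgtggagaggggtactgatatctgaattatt
The CD1C window held 7 such sites and the CD1E window 4, where 95.5% of 35116 windows of the same length held at least 1 and the median was 3. The E-box letters CACCTG, searched on both strands, occurred once in the CD1C window and not in that of CD1E, and 20.6% of all windows held them. TATAAA, searched on both strands, was in neither, and in 11.5% of all windows. These matches describe letters and not bound sites.

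Values were TPM, which scales reads by transcript length and each library to a sum of 1000000, so that levels can be compared between genes. KHSRP was at 35.1, 35.1 and 35.1 TPM in KHSRPi#1, 35.8, 33.7 and 36.5 TPM in KHSRPi#2, and 253, 244 and 216 TPM in NTC libraries. Read depth, judged from the spacing of low TPM values, was between 0.98 and 1.83 times that of NTC replicate 1. In each group the replicate 3 library lay away from replicates 1 and 2 along the leading principal axis of the tested genes (38.3% of variance), and the labels do not say how they differ. Of 14 markers of plasmacytoid dendritic cells, 11 had a mean of at least 1 TPM, and their summed level was 3881 to 4412 TPM in knockdown and 3748 to 4249 TPM in NTC libraries. Of all tested genes, 3.1% were higher and 1.57% lower in knockdown without overlap. Of the 14 markers, 3 were higher in all knockdown libraries than in any NTC library, and 0 were lower. These were GZMB (55.1 to 99.7 TPM in knockdown and 28.98 to 47.7 TPM in NTC libraries), TCL1A (860 to 933 TPM in knockdown and 772 to 836 TPM in NTC libraries) and LILRA4 (0.805 to 1.246 TPM in knockdown and 0.522 to 0.710 TPM in NTC libraries). LILRA4, at a mean of 0.881 TPM, was not among the tested genes. IL3RA, which encodes the CD123 receptor typical of BPDCN, is listed at 0 in every library. The sources used here do not state how reads were counted, so this 0 is not read as absence of its mRNA.

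CD1C was the most abundant member in all 9 libraries, and its NTC mean exceeded that of 97.3% of all symbols. It was at 234, 217 and 185 TPM in KHSRPi#1, at 234, 228 and 181 TPM in KHSRPi#2, and at 221, 222 and 181 TPM in NTC libraries. The 3 groups overlapped almost entirely, and in each group the low library was replicate 3. CD1E, the lysosomal member, came next in every library, above 92.6% of symbols in NTC. It was at 106, 102 and 114 TPM in KHSRPi#1, at 108, 107 and 114 TPM in KHSRPi#2, and at 73.0, 83.9 and 83.9 TPM in NTC libraries. All 6 knockdown libraries lay above all 3 NTC libraries for CD1E.

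CD1B, a group 1 molecule with a large groove for long-chain lipids, was at 9.76, 8.92 and 9.74 TPM in KHSRPi#1. It was at 8.50, 8.78 and 8.07 TPM in KHSRPi#2 and at 6.01, 6.72 and 5.65 TPM in NTC libraries. Here too the knockdown libraries were all above the NTC libraries. CD1A, the group 1 molecule of Langerhans cells, was at 6.73, 6.91 and 6.93 TPM in KHSRPi#1, at 5.95, 7.35 and 6.56 TPM in KHSRPi#2, and at 7.24, 6.06 and 5.89 TPM in NTC libraries. Its groups overlapped. CD1A and CD1B did not separate in NTC libraries, at 6.39 ± 0.734 and 6.13 ± 0.548 TPM (SD, n = 3), whereas every knockdown library held more CD1B (8.07 to 9.76 TPM) than any held CD1A (5.95 to 7.35 TPM).

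**Figure D1:**
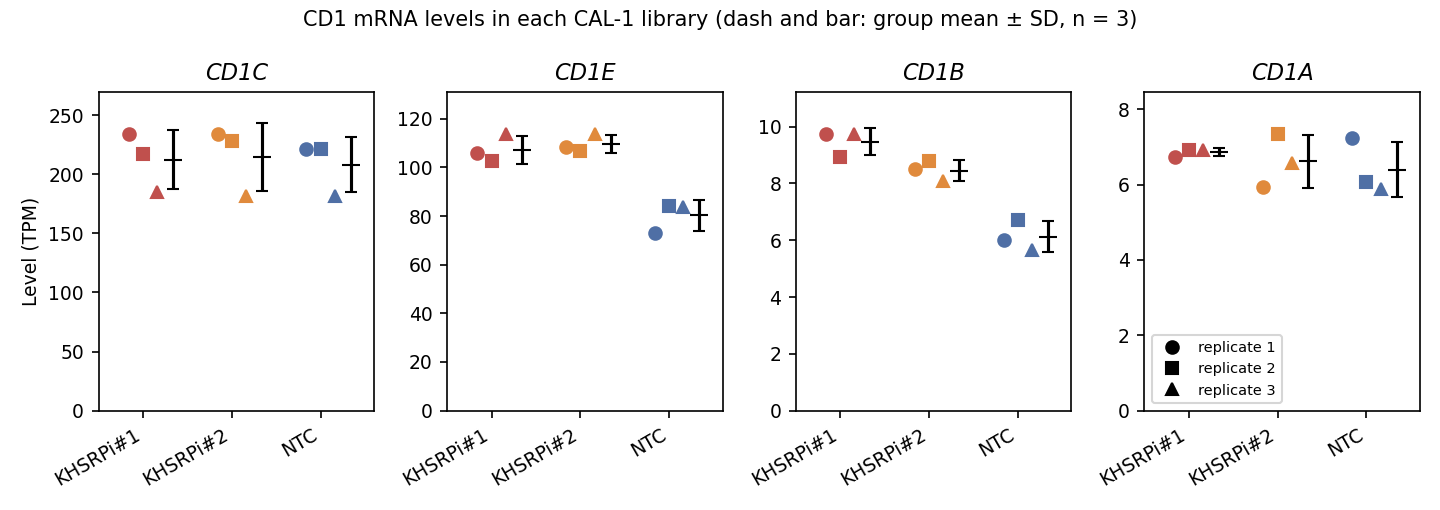
TPM of the 4 detected CD1 genes in each library, with the group on the horizontal axis, the marker shape giving the replicate number, and the dash and bar giving the group mean and SD (n = 3). CD1E and CD1B were higher in all 6 knockdown libraries than in the 3 NTC libraries, CD1A and CD1C overlapped, and replicate 3 was the lowest CD1C library of each group (185, 181 and 181 TPM).

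CD1D, the group 2 molecule, was at the limit of detection. It was at 0.0131, 0.0126 and 0.0123 TPM in KHSRPi#1, at 0.0114 TPM in KHSRPi#2 replicate 1, and listed at 0 in the other 2 libraries of KHSRPi#2 and in all 3 NTC libraries. Multiplied by the relative depth of the library, the 4 values above 0 were each 0.0175, as equal whole numbers of reads would give. No difference in CD1D was detectable at this depth. CD1D did not reach a mean of 1 TPM and was not tested, so the counts below concern 4 tested members.

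**Figure D2:**
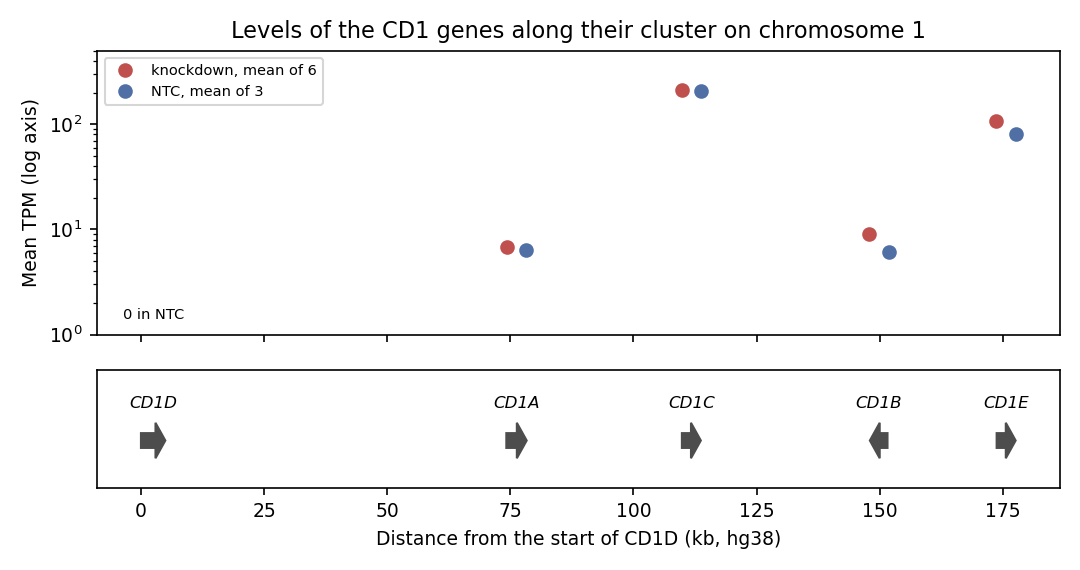
Mean TPM of each CD1 gene (upper panel, log axis) in 6 knockdown and 3 NTC libraries, above its position in kb from the start of CD1D with the arrow showing its strand (lower panel). CD1C (213 TPM in knockdown, 208 TPM in NTC) and CD1E (108 and 80.3 TPM) stand more than 10 times above CD1A and CD1B in NTC, and CD1D is 0 in NTC and is not plotted.

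Relative to NTC, mean CD1B was 1.55 times as high in KHSRPi#1 and 1.38 times as high in KHSRPi#2. Mean CD1E was 1.34 times as high in KHSRPi#1 and 1.37 times as high in KHSRPi#2. The log2 difference of knockdown minus NTC, on the log2(TPM + 1) scale, was 0.48 for CD1B (SE 0.07) and 0.43 for CD1E (SE 0.06). It was 0.07 for CD1A (SE 0.08) and 0.03 for CD1C (SE 0.10), where the median of all 10939 tested genes was 0.018. Both knockdown groups were set against the same 3 NTC libraries, so their differences are not independent of each other. In the limma fit over all tested genes, 2 of the 4 tested members, CD1B and CD1E, passed an adjusted p of 0.05 in this comparison. That comparison called 9 genes, 0.0823% of those tested (0.0457% higher and 0.0366% lower), and since it also led to the choice of the family nothing is read from the count. CD1B and CD1E were also the 2 members whose knockdown libraries all lay above the NTC libraries, as for 3.1% of tested genes. With any 1 of the 9 libraries left out, 0 of the members passed, while their log2 differences ran from 0.43 to 0.54 for CD1B and from 0.36 to 0.46 for CD1E.

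The differences were also taken among libraries of the same replicate number, since replicate 3 stood apart. For CD1B knockdown minus NTC was 0.53, 0.35 and 0.57 on the log2 scale in replicates 1, 2 and 3, and for CD1E it was 0.54, 0.31 and 0.43. For CD1A it was -0.17, 0.20 and 0.17, and for CD1C 0.08, 0.01 and 0.01. The numbers 1 and 2 do not mark pairs, as described at the end, so the signs of CD1A there depend on the matching. Over replicates 1 and 2 together the difference was 0.44 for CD1B, 0.43 for CD1E, 0.02 for CD1A and 0.04 for CD1C. CD1B and CD1E were thus as far apart from NTC within replicate 3 as within the other libraries. A term for replicate 3 cannot alter the averages, since each group has 1 such library, and it changes only the spread. CD1B and CD1E were among the 192 genes (1.76%) called with that term, and 1 of the 2 was called when NTC replicate 3 was left out; as the same contrast led to their choice, nothing is read from these calls either.

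The members' shares of the family's summed level followed these values. The sum was 310 to 357 TPM in knockdown and 277 to 318 TPM in NTC libraries. CD1C made up 58.5% to 65.7% of it in knockdown and 65.5% to 71.9% in NTC libraries, and CD1E 29.7% to 36.8% in knockdown and 23.7% to 30.3% in NTC libraries, so the ranges overlapped narrowly. The ratio of CD1E to CD1C was 0.451, 0.472 and 0.614 in KHSRPi#1 and 0.462, 0.468 and 0.628 in KHSRPi#2, against 0.330, 0.379 and 0.462 in NTC libraries. Each knockdown library exceeded the NTC library of its own replicate number, and replicate 3 had the highest ratio in every group. The ratio of CD1E to CD1B was 10.8, 11.5 and 11.7 in KHSRPi#1, 12.7, 12.1 and 14.1 in KHSRPi#2, and 12.1, 12.5 and 14.9 in NTC libraries. All KHSRPi#1 libraries were below the NTC libraries in this ratio, and KHSRPi#2 overlapped with NTC.

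**Figure D3:**
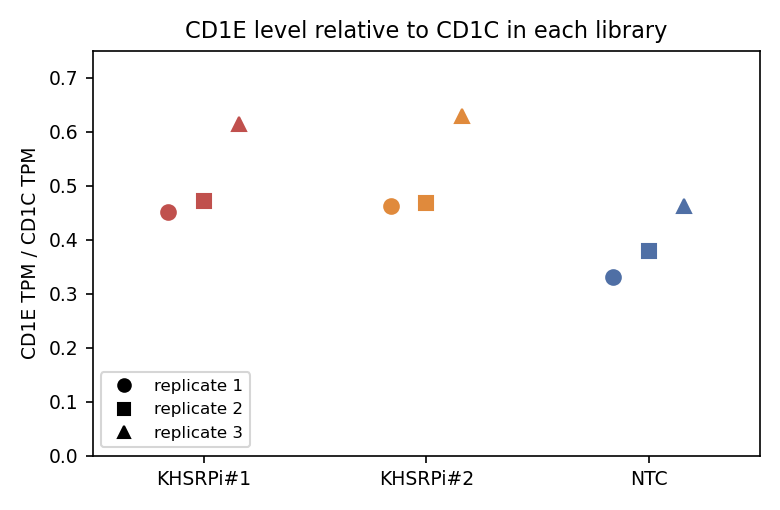
Ratio of CD1E to CD1C TPM in each library (vertical axis) by group, with the marker shape giving the replicate number. Knockdown libraries lie between 0.451 and 0.628 and NTC libraries between 0.330 and 0.462, and replicate 3 is the highest of each group.

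The direct comparison of the knockdown groups does not use the NTC means and was not part of the choice of the family. All groups were fitted together, so the spread between NTC libraries enters its intervals and adjusted p. The comparison asks whether the 2 knockdown groups differ in CD1 levels. CD1B averaged 8.45 ± 0.360 TPM in KHSRPi#2 and 9.47 ± 0.475 TPM in KHSRPi#1 (SD, n = 3 each), and the KHSRPi#2 libraries were all below those of KHSRPi#1, as for 1.16% of all tested genes (3.3% were all above). The log2 difference of KHSRPi#2 minus KHSRPi#1 was -0.15 for CD1B (95% interval -0.33 to 0.03, limma adjusted p = 1.00). It was 0.03 for CD1E (95% interval -0.12 to 0.18), -0.05 for CD1A (-0.26 to 0.17) and 0.01 for CD1C (-0.25 to 0.28), each with an adjusted p of 1.00. With limma 0 of 4 tested members passed, and 0 had an unadjusted p under 0.05; 0 of all 10939 genes passed (0.0%) and 115 had an unadjusted p under 0.05. A log2 difference of 0.48, the size seen for CD1B between knockdown and NTC, lies outside the interval of each of the 4 members in either direction. This fit held no replicate 3 term, so the shift of the replicate 3 libraries also enters its spread. With that term the intervals were -0.31 to 0.01 for CD1B and -0.08 to 0.14 for CD1E. They were -0.24 to 0.15 for CD1A and -0.07 to 0.10 for CD1C, and again 0 members passed.

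Because earlier results of these data showed the replicate 3 libraries apart, they were compared with replicates 1 and 2, the 3 groups being kept in the fit. CD1C was at 185, 181 and 181 TPM in the replicate 3 libraries and between 217 and 234 TPM in the other 6, with no overlap. Its log2 difference of replicate 3 minus replicates 1 and 2 was -0.31 (SE 0.03, limma adjusted p = 8.79e-05). Within the groups it was -0.29 in KHSRPi#1, -0.35 in KHSRPi#2 and -0.29 in NTC, so CD1C fell in 3 of 3 groups by a like amount. Libraries were lower without overlap in replicate 3 for 11.0% of all tested genes. The same difference of CD1E was positive in each group, 0.12 in KHSRPi#1, 0.08 in KHSRPi#2 and 0.10 in NTC, and its average of 0.10 (SE 0.04) did not pass (adjusted p = 0.0942). The averages of CD1B (-0.06, SE 0.06, adjusted p = 0.507) and CD1A (-0.05, SE 0.08, adjusted p = 0.684) did not pass. CD1C was thus 1 of 4 tested members called, beside 30.3% of all tested genes (18.7% higher and 11.6% lower), a share close to that background.

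The proteins that CD1 molecules depend on were described from a list of 46 genes ordered by role, all of them matched in the table and 38 tested. In knockdown against NTC, 0 rose and 0 fell with limma (adjusted p of at least 0.667), and 0 had an unadjusted p under 0.05, where 0.0823% of all tested genes passed and 867 had such a p. Of the 38, 24 had a positive log2 difference and 14 a negative one, with a median of 0.02; of all tested genes 58.3% were positive. B2M, the light chain shared by CD1 and MHC class I molecules, was at 776 ± 22.6 TPM in knockdown (SD, n = 6) and 744 ± 31.7 TPM in NTC libraries (n = 3). Its log2 difference was 0.06 (adjusted p = 0.742). CANX, the ER chaperone calnexin that folds the heavy chain, averaged 1825 TPM in knockdown and 1729 TPM in NTC libraries, and MTTP, which is known to load lipids onto CD1d in the ER, was near 0.

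The adaptor complexes AP-2 and AP-3 steer CD1b, and AP-2 also CD1c and CD1d, from the cell surface to endosomes and lysosomes. Of 9 tested subunits 0 passed; AP2M1, the AP-2 subunit that reads tyrosine motifs in cargo tails, averaged 196 TPM in knockdown and 189 TPM in NTC libraries. AP2A2 was the 1 gene of the list whose libraries did not overlap, at 4.46 ± 0.211 TPM in knockdown and 4.98 ± 0.217 TPM in NTC libraries, with a log2 difference of -0.13 that did not pass (adjusted p = 0.690). Of all tested genes 3.1% were higher and 1.57% lower without overlap, so 1 of 38 is no more than that background. Saposins and related proteins move lipids into the CD1 groove in the lysosome. All 4 lysosomal lipid transfer proteins of the list, a wider class, had positive log2 differences and 0 passed. PSAP, the saposin precursor, averaged 128 TPM in knockdown and 122 TPM in NTC libraries. Of 8 lysosomal hydrolases that trim lipids, 0 passed, 6 with a positive and 2 with a negative log2 difference.

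CD74, the invariant chain, averaged 1617 TPM in knockdown and 1596 TPM in NTC libraries, and CTSL, a protease known for a part in CD1d presentation in mice, was near 0. SCARB1, a lipoprotein receptor, was the most abundant of the lipid uptake genes, at 82.9 TPM in knockdown and 84.7 TPM in NTC libraries. ELF1, an ETS factor, led the list of transcription factors linked to CD1 genes at 141 TPM in knockdown and 139 TPM in NTC libraries, and SPI1 (PU.1) averaged 60.6 TPM in knockdown and 64.8 TPM in NTC libraries. ETS1, LEF1 and PPARG, the last known for CD1D induction in dendritic cells, are listed at 0 in all libraries.

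Of the 38 pathway genes, 18 passed between replicate 3 and replicates 1 and 2, 9 higher and 9 lower, where 30.3% of all tested genes passed (18.7% higher and 11.6% lower). Without NTC replicate 3, 10 of the 38 passed, where 16.5% of all tested genes did. All 3 tested genes of ER folding fell in replicate 3 as CD1C did. The log2 differences were -0.17 for CANX (adjusted p = 0.00949), -0.55 for CALR (adjusted p = 5.31e-07) and -0.23 for PDIA3 (adjusted p = 0.000233). CANX missed the threshold when NTC replicate 3 was left out (adjusted p = 0.0517), when KHSRPi#2 replicate 3 was left out (adjusted p = 0.0674), without the filter on low values (adjusted p = 0.0568), and after quantile normalization, which took its difference to -0.06 (adjusted p = 0.431). Among the lysosomal lipid transfer proteins NPC2 (0.32, adjusted p = 0.000235) and GM2A (0.16, adjusted p = 0.0179) rose in replicate 3, though GM2A did not pass when any 1 of the 3 replicate 3 libraries was left out (adjusted p of 0.0585, 0.102 and 0.103).

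**Figure D4:**
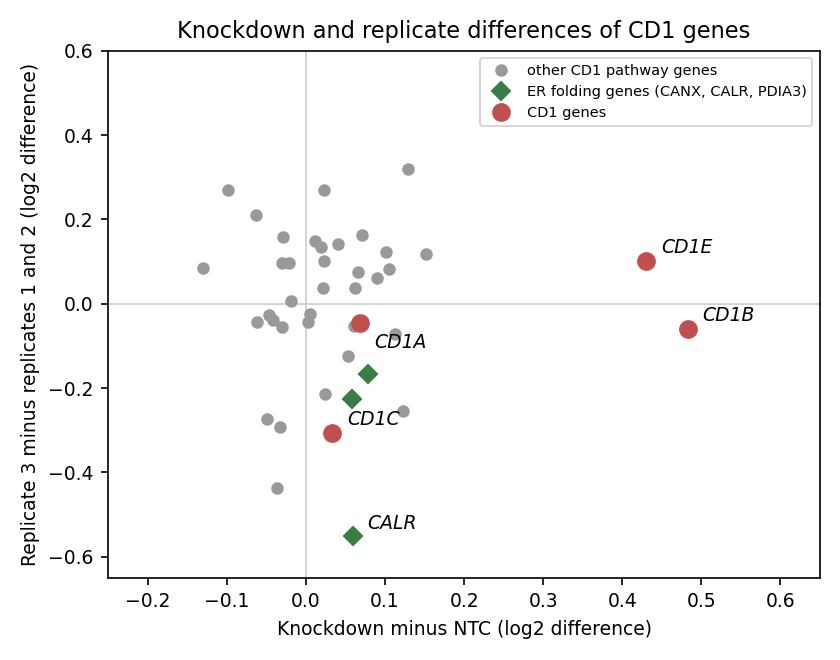
Log2 difference of knockdown minus NTC (horizontal axis) and of replicate 3 minus replicates 1 and 2 (vertical axis) for the 4 tested CD1 genes and 38 pathway genes, 1 point per gene. CD1B and CD1E lie to the right at 0.48 and 0.43 with replicate differences of -0.06 and 0.10, whereas CD1C (0.03, -0.31) lies low beside the ER folding genes.

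The genes most like each member over the 9 libraries, by Pearson r of log2(TPM + 1) among the tested genes, were not shared between members. CD1C was most like DNAJB11 (r = 0.991), HSPA5 (r = 0.984) and HSPA8 (r = 0.981), which encode an ER co-chaperone, the ER chaperone BiP and a cytosolic chaperone. HSPA5 was at 373 to 398 TPM in replicate 3 and at 503 to 555 TPM in the other libraries, a log2 difference of -0.47 (adjusted p = 6.39e-06). CD1E was most like LOC642852 (r = 0.979), FKBP11 (r = 0.977), an ER-resident prolyl isomerase, and PIN4 (r = 0.972), another prolyl isomerase. FKBP11 averaged 72.6 ± 2.91 TPM in knockdown and 58.0 ± 4.73 TPM in NTC libraries (SD, n = 6 and 3). Its log2 difference of 0.32 did not pass in the fit without covariates (limma adjusted p = 0.128) and passed with the replicate 3 term (limma adjusted p = 0.0072). As HSPA5 and FKBP11 were picked for their likeness to CD1C and CD1E, nothing is read from these differences. CD1B was most like MPI (r = 0.947), ARMCX4 (r = 0.943) and the pseudogene CXCR2P1 (r = 0.930), and CD1A most like FSTL3 (r = 0.918), EXOSC5 (r = 0.907) and MPPE1 (r = 0.899). These are the highest of 10938 correlations for each member over libraries that share groups and replicate numbers, and they carry no test. Between members, r was 0.879 for CD1B and CD1E, -0.10 for CD1C and CD1E and 0.22 for CD1B and CD1C. Taken as deviations from the group means, r was 0.15 for CD1B and CD1E and -0.64 for CD1C and CD1E.

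CD1B, CD1E and CD1A are similar enough in sequence for reads to be shared. In any of their GENCODE 29 transcripts the longest identical run was 92 bases between CD1A and CD1B, 88 bases between CD1B and CD1E and 80 bases between CD1A and CD1E, while CD1C shared at most 24 bases with any member. CD1D shared a run of 59 bases with CD1A, 43 bases with CD1E and 38 bases with CD1B. The sources used here do not state how reads shared between members were counted. The levels of CD1A, CD1B, CD1D and CD1E are uncertain to that extent, and the part of shared reads in the CD1B and CD1D values was not tested.

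Around the cluster, GENCODE 29 lists 66 other genes within 1 Mb on either side, of which 32 have a row and 2 were tested. IFI16, a DNA sensor, averaged 75.9 ± 2.81 TPM in knockdown and 75.4 ± 5.91 TPM in NTC libraries. FCER1A, the alpha chain of the IgE receptor and also a marker of the conventional dendritic cells that carry CD1c, was at 12.6, 14.7 and 15.4 TPM in KHSRPi#1, 11.6, 13.0 and 11.8 TPM in KHSRPi#2, and 20.6, 19.3 and 18.4 TPM in NTC libraries. It fell by 0.53 on the log2 scale (SE 0.07, limma adjusted p = 0.0304), where 0.0366% of all tested genes were called lower and 1.57% were lower without overlap. In 8 of 9 fits with 1 library left out FCER1A did not pass, the exception being the fit without KHSRPi#1 replicate 3; adjusted p ran from 0.0331 to 0.285, and the difference ran from -0.57 to -0.49.

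Since CD1 genes are typical of conventional dendritic cells, 10 markers of those and of Langerhans cells were set beside them. The summed level of the list was 14.9 to 19.1 TPM in knockdown and 23.5 to 26.8 TPM in NTC libraries, and 2 of the 10 had a mean of at least 1 TPM, FCER1A and SIRPA. FCER1A alone was at 11.6 to 15.4 TPM in knockdown and 18.4 to 20.6 TPM in NTC libraries, so the sum mostly restates that gene. All libraries came from a line that models a plasmacytoid dendritic cell neoplasm, so FCER1A here does not by itself mark conventional dendritic cells. Of the 10, 3 (FCER1A, CLEC10A and SIRPA) were lower in all knockdown libraries than in any NTC library, and 0 were higher. Of all tested genes 1.57% were lower and 3.1% higher without overlap, and CLEC10A, at a mean of 0.996 TPM, was not tested. CLEC10A was at 0.218 to 0.814 TPM in knockdown and 1.30 to 2.29 TPM in NTC libraries, and SIRPA at 2.42 to 3.41 TPM in knockdown and 3.43 to 3.50 TPM in NTC libraries. XCR1 is listed at 0 in all libraries, and CD207, CLEC9A, ITGAX and CD209 did not exceed 0.0635 TPM in any. Of the thymocyte and T cell markers, 0 of 6 matched genes had a mean of at least 1 TPM, and CD3D, CD8A and CD8B are listed at 0. Of 6 monocyte markers LYZ alone had a mean of at least 1 TPM (36.9 to 81.2 TPM in knockdown and 36.6 to 90.8 TPM in NTC libraries), and of 5 B cell markers PAX5 and CD79A did. The part of these markers in the CD1 values was not tested. In bulk RNA, fewer cells of a type and less RNA per cell cannot be told apart.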

How the data were processed

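RNA was sequenced from 9 CAL-1 libraries. TPM values per gene symbol were deposited by the authors in a single table whose columns each sum to 1000000, and 0 columns belong to other samples. Per the labels' protocols RNA came from a spin-column extraction, and hg38 is the build in the submitters' processing notes. The name of the deposited table gives STAR as the aligner, with no version; the counting tool, annotation, read length and strand use were not stated in the sources used here. TPM holds no read totals, so relative depth was taken from the commonest ratio of low TPM values between libraries. Genes with a mean of at least 1 TPM were tested with limma 3.58.1 (R 4.3.3) on log2(TPM + 1), with an intensity trend, two-sided, adjusted by Benjamini-Hochberg over all 10939 tested genes and called under 0.05. The 3 groups entered 1 fit without covariates, or with a replicate 3 term where stated, and the code was tested on simulated data. P-values measure the spread between these libraries. Groups and replicate numbers come from the titles.

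The members and all lists were chosen with earlier results of these data known. The rule named all members, KHSRP, the most abundant pathway gene of each role (1 is not reported here), the 3 genes most like each member and tested genes within 1 Mb; the other pathway genes named (AP2A2, SPI1, CALR, PDIA3, NPC2, GM2A, and those near or at 0) were chosen after their values were seen, as were GZMB, TCL1A, LILRA4, CLEC10A and SIRPA among the markers. Positions, transcripts and 3' untranslated regions are from GENCODE 29 and promoters from RefSeq. Tables and plots were made in Python 3.11.15 (pandas 2.3.3, numpy 2.4.6, matplotlib 3.10.9).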

Additional observations from a re-analysis of the deposited data

How the results depend on the processing

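Results were recomputed with other pseudocounts (0.1 and 5), with other filters (none, or a mean of 5 TPM), after median-ratio or quantile scaling, with a replicate block or a replicate 3 term, on the 2 knockdown groups alone for their own comparison, and without each library. A fit of replicates 1 and 2 alone and the replicate 3 term combined with leaving out each library were added after seeing the data. Of the members, 2 were called between knockdown and NTC; the count was 0 without a filter, 1 after median-ratio rescaling, 1 after quantile normalization, 1 in replicates 1 and 2 alone, and 0 to 0 whichever library was left out. With the replicate 3 term it was 1 to 2 across the left-out libraries, with 1 without NTC replicate 3. Over the settings the difference of CD1B ran from 0.33 (pseudocount 5) to 0.54 and that of CD1E from 0.36 to 0.49. As their knockdown libraries all lay above the NTC libraries, leaving out a library could not reverse the sign, and nothing is read from its constancy. Between replicate 3 and the others 1 member was called, and 2 after quantile normalization or without NTC replicate 2, where CD1E passed (adjusted p = 0.0331 and 0.0198); leaving out libraries gave 1 to 2. CD1C passed in all 15 alternatives, from -0.34 to -0.28. The pathway count between knockdown and NTC, and both counts between the knockdown groups, were 0 in every setting run; that between replicate 3 and the others ran from 10 to 18 with a library left out.

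Small differences changed sign without passing: KHSRPi#2 minus KHSRPi#1 for CD1C was -0.015 after median-ratio rescaling, and ran from -0.082 to 0.13 with a library left out; that of CD1A ran from -0.12 to 0.017, that of CD1E from -0.00042 to 0.073, and the replicate 3 difference of CD1A from -0.085 to 0.0046. Knockdown minus NTC ran from -0.06 to 0.09 for CD1C and from 0.02 to 0.15 for CD1A with a library left out.

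Same-numbered libraries correlated in their deviations from group means with r over 0.1 in 8 of 9 pairs. The replicate 3 pairs were at 0.622 to 0.628, but replicates 1 and 2 correlated across numbers (0.238 to 0.371) as well as within them (0.0398 to 0.324), so a number does not mark a pair there and replicate numbers were not taken as pairs; the replicate block called the same number of members, 2, and the same number of pathway genes, 0. TPM without read totals leaves the precision of CD1D and other low genes unknown.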
